A study of Drosophila melanogaster with 2 samples.

Results

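The *Uhg* genes of *Drosophila melanogaster* are noncoding host genes, whose introns carry the small nucleolar RNAs (snoRNAs) and whose own spliced RNA has little coding capacity. The deposited table of RNA levels from ME31B immunoprecipitation held 7 genes of this name among 16863 genes, namely *Uhg1*, *Uhg2*, *Uhg3*, *Uhg4*, *Uhg5*, *Uhg7* and *Uhg8*. They were chosen by name, with the values of these same libraries already known, so that their levels are given as a description and without a test. All 7 passed the minimum of 0.5 FPKM (fragments per kilobase of transcript, scaled to the depth of each library) in both libraries, as did 6886 genes in all. The lowest value of any of them was that of *Uhg5* in the input, at 1.55 FPKM.

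Small nucleolar RNAs guide the chemical modification of ribosomal RNA in the nucleolus. Those with C/D boxes direct methylation of the ribose, and those with H/ACA boxes direct the conversion of uridine to pseudouridine. In animals most of them are cut out of introns after splicing, so a host gene yields a snoRNA from each such intron and a spliced RNA from its exons. The spliced RNAs of the hosts called UHG and GAS5 in mammals reach the cytoplasm, engage ribosomes and are cleared by nonsense-mediated decay. ME31B is a cytoplasmic DEAD-box RNA helicase, known as DDX6 in vertebrates, which binds deposited maternal mRNAs in a complex with Cup and Trailer Hitch and represses their translation.

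Both libraries came from stage 14 oocytes, the mature oocytes held before egg activation. According to the labels these were collected from a large culture of w1118;eGFP-Me31B flies, in which ME31B carries a GFP tag, and the study's account of its results likewise speaks of tagged ME31B from these oocytes, whereas the methods name *w1118* flies for this step and mention no tag. The input library was made from the lysate, which was brought to 1.1 mg/ml, and the other library from the RNA that remained on the beads after immunoprecipitation. The label of the second library names no antibody, and anti-GFP is taken from the methods. Each condition had 1 library, so differences could not be set against a replicate spread and no test was made. Neither library came from a control pull-down, so RNA recovered without ME31B was not measured here.

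Read numbers are not given for either library in the sources used here. All 10 oocyte markers examined were above 0.5 FPKM in both libraries, from *grk* at 5.38 FPKM to *nos* at 706 FPKM in the input. Of 13 genes of follicle cells, which surround the oocyte and build the eggshell, 12 passed this level in the input and 11 in the immunoprecipitate, with summed levels of 871 and 505 FPKM, and *Yp3* at 0.66 and 0.48 FPKM. Markers of muscle were at 1.39 FPKM or less in the input, those of haemocytes were listed at 0 in both libraries, and those of fat body were at 0 in the input and at 0.04 FPKM or less in the immunoprecipitate. The part of follicle cell RNA in the values of the *Uhg* genes was not tested.

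The 7 genes lie on 3 chromosome arms in the dm6 build, by the RefSeq gene table, which annotates each as a long noncoding RNA. *Uhg1* spans chr2R:17699097-17703344 and holds 16 annotated snoRNA genes, the most of any. *Uhg5* spans chr2R:14621601-14624498 and holds 11, and *Uhg4* spans chr2R:9095273-9097312 and holds 7. *Uhg2* at chr2L:9893805-9895003 and *Uhg7* at chr3L:1666288-1667307 hold 4 each, and *Uhg3* at chr2L:20647533-20648848 and *Uhg8* at chr3L:20453293-20454731 hold 3 each. These spans include introns and run from 1020 bp for *Uhg7* to 4248 bp for *Uhg1*.

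The architecture of these genes was regular. The 48 snoRNA genes inside them had a median length of 79 bases, and 46 were of the C/D kind by their names. The exceptions, snoRNA:Psi28S-2949 and snoRNA:Or-aca5, are H/ACA RNAs and both lie in *Uhg4*. Between neighbouring snoRNA genes of a host lay 142 to 425 bp, with a median of 164 bp over 41 gaps. The *Uhg* genes carried from 2.08 snoRNA genes per kb in *Uhg8* to 3.92 in *Uhg7*, and the snoRNA genes took up from 16.5% of the span in *Uhg8* to 37.5% in *Uhg4*. Several hosts carry repeated copies of a guide, such as the U31 and U29 series in *Uhg1* and the Me18S-U1356 series, the whole set of *Uhg8*.

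**Figure D1:**
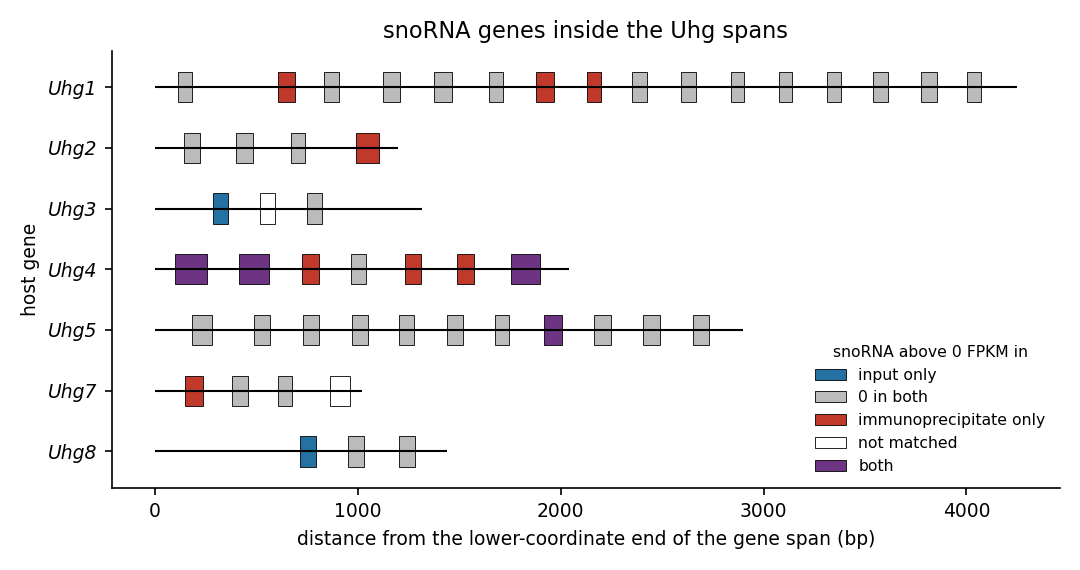
The 48 snoRNA genes inside the 7 Uhg spans, drawn to scale by distance in bp from the lower-coordinate end of each span (lines, spans; boxes, snoRNA genes). Colours give the library in which the snoRNA was above 0 FPKM, and 32 of the 46 snoRNA genes matched to the table were at 0 in both.

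The RNA of 6 of the 7 genes was at a higher FPKM in the immunoprecipitate than in the input. *Uhg3* stood apart, with 31.8 FPKM in the input against 344 FPKM in the immunoprecipitate, a ratio of 10.8. In the input it was below *Uhg2* and *Uhg4*, and in the immunoprecipitate it was the highest of the 7. Its share of the summed FPKM of the *Uhg* genes was 23.5% in the input and 65.2% in the immunoprecipitate.

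*Uhg4* and *Uhg2* were the most abundant in the input and close to each other, at 43.6 and 43.4 FPKM. They differed in the immunoprecipitate, where *Uhg4* was at 91.0 FPKM and *Uhg2* at 43.1 FPKM. *Uhg2* was thus the only one that was not higher in the immunoprecipitate, with a ratio of 0.99.

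The remaining 4 genes were scarcer, and each was higher in the immunoprecipitate. *Uhg8* was at 9.77 FPKM in the input against 29.4 FPKM in the immunoprecipitate. *Uhg1* had 3.29 FPKM before and 9.12 FPKM after immunoprecipitation, and *Uhg7* had 2.21 and 8.01 FPKM. *Uhg5* was the lowest in both, at 1.55 and 2.79 FPKM, and 3.86% of the 6886 genes were below it in the input. The hosts with the most snoRNA genes, *Uhg1* and *Uhg5*, were therefore among the scarcer *Uhg* RNAs, and the input levels of the 7 genes spanned 28.1-fold and those in the immunoprecipitate 123-fold.

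**Figure D2:**
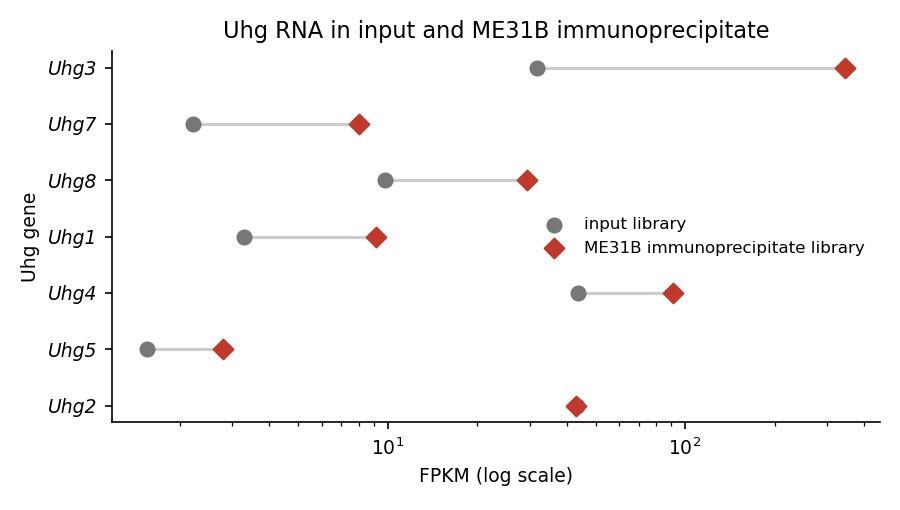
FPKM of each Uhg gene on a log axis in the input library (circles) and the ME31B immunoprecipitate library (diamonds), 1 library each. Uhg3 moved furthest, from 31.8 to 344 FPKM, and the symbols of Uhg2 lie on each other at 43.4 and 43.1 FPKM.

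Occupancy was taken as the FPKM in the immunoprecipitate divided by that in the input, as in the methods of the study. Because a ratio between separate libraries has no fixed zero, it was expressed as a log2 difference from the median of the 6886 genes, whose occupancy was 1.26. On this scale *Uhg3* was at 3.10, or 8.58-fold above the median gene, and 5 genes were higher. *Uhg7* followed at 1.52, *Uhg8* at 1.25 and *Uhg1* at 1.14. *Uhg4* was at 0.73, *Uhg5* at 0.51 and *Uhg2* at −0.34.

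By a fixed rule of size, 4 of the 7 genes were at least 2-fold above the median gene, beside 9.48% of all 6886 genes, and 0 of 7 were at least 2-fold below it, beside 15.2% of all genes. *Uhg1* lay just inside the 2-fold rule and *Uhg4* just outside it. Since the genes were picked with these values known, nothing is read from the count beside the background. The median over the 7 genes was 1.14. The gap between *Uhg3* and *Uhg7*, the next in order, was 1.58 on the log2 scale, and the other 6 genes covered a range of 1.86. *Uhg8* was 0.27 below *Uhg7* and *Uhg1* 0.12 below *Uhg8*, and whether neighbours in this order differ could not be tested with 1 library per condition.

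**Figure D3:**
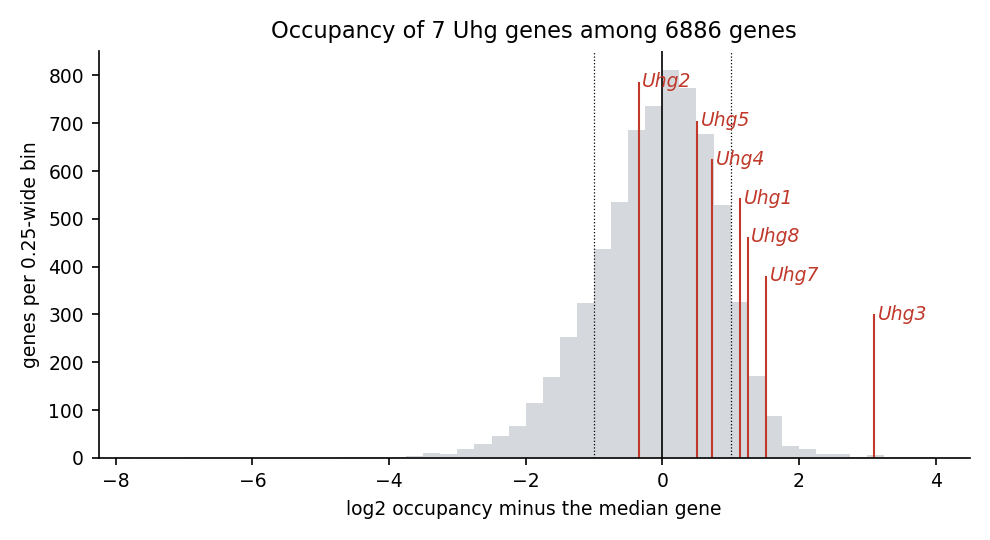
Histogram of log2 occupancy minus the median gene for 6886 genes, in bins of 0.25, with red lines at the 7 Uhg genes whose heights serve only to separate the labels. Dotted lines mark 2-fold below and above the median gene, and 4 Uhg genes lie beyond the upper line.

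The spans of 4 *Uhg* genes overlap protein-coding genes, and reads in a shared part may be counted for either. *Uhg7* lies wholly inside *RpL23A*, which encodes a protein of the large ribosomal subunit, and shares 307 bp with *CG7974*. *RpL23A* was at 683 FPKM in the input against 458 FPKM in the immunoprecipitate, and its occupancy of −0.91 was on the other side of the median gene from that of *Uhg7*. *Uhg4* shares 382 bp, or 18.7% of its span, with *Ctu1*, a tRNA thiolation gene, which was at 11.1 and 18.5 FPKM and at 0.40 on the occupancy scale. The overlaps were 42 bp for *Uhg8* with *atk*, which was listed at 0 in both libraries, and 10 bp for *Uhg1* with *CG6424*. The part of shared reads in these occupancies was not tested. *Uhg2*, *Uhg3* and *Uhg5* overlap no protein-coding gene, and of these 3 only *Uhg3* was at least 2-fold above the median gene.

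Most of the snoRNAs carried by these hosts were not seen in either library. Of the 48, 46 were matched to a gene of the table, and 32 of these had 0 FPKM in both libraries. A further 4 were above 0 in both, 8 in the immunoprecipitate only and 2 in the input only. All 16 snoRNAs of *Uhg1* were listed at 0 in the input, and 3 of them were above 0 in the immunoprecipitate. In *Uhg3*, the host with the highest occupancy, snoRNA:Me28S-C2645a was at 109 FPKM in the input and at 0 in the immunoprecipitate, and snoRNA:Me28S-C2645c was at 0 in both. The number of reads behind the 109 FPKM could not be resolved, so no loss is read from it.

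The length of the snoRNA went with whether it was seen at all. Of the matched snoRNAs in *Uhg* genes, 10 of 41 under 100 bases were above 0 in either library, and 4 of 5 with 100 bases or more. Among all other snoRNA genes of the table the shares were alike, at 14 of 56 (25.0%) and 113 of 155 (72.9%). A short RNA that is listed at 0 is thus not shown to be absent.

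*Uhg4* carried the snoRNAs with the highest FPKM, and these differed in direction within 1 host. FPKM of RNAs as short as snoRNAs depends strongly on the length assumed. Their levels are therefore not comparable with those of the hosts, nor between snoRNAs of unlike length. The orphan H/ACA RNA snoRNA:Or-aca5, which has no assigned target, was at 3053 FPKM in the input against 24810 FPKM in the immunoprecipitate, 2.69 above the median gene on the log2 scale. The orphan C/D RNA snoRNA:Or-CD2, which lies in the part shared with *Ctu1*, was at 1823 FPKM in the input against 872 FPKM in the immunoprecipitate, or −1.40 against the median gene. snoRNA:Psi28S-2949, a pseudouridine guide, was at 7.74 and 104 FPKM. Of the other 4 in this host, snoRNA:Me28S-G3255a, snoRNA:Me28S-G3255b and snoRNA:Me28S-A982b were at 0 in the input and at 146, 169 and 330 FPKM in the immunoprecipitate. The number of reads behind these values could not be resolved, and no enrichment is read from them. The last, snoRNA:Me28S-A982a, was at 0 in both.

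For some lengths these values could be set against numbers of reads. A common step, of which at least 80% of the FPKM values of snoRNAs of 1 length were whole multiples within 0.05, was found in both libraries at 22 lengths. Of these, 11 lengths from 136 to 166 bases were kept because the step in the immunoprecipitate was 0.95 to 0.97 times that in the input, a window set after the values were seen. At the kept lengths 93 of 95 values were whole multiples, but the smallest sets held only 2 values a library and the agreement is partly fixed by this choice. The best filled was 140 bases, with 15 of 16 values in the input and 13 of 14 in the immunoprecipitate. In the input 1 step was 12.4 FPKM at 136 bases but 6.05 FPKM at 166 bases. The median step ratio at the kept lengths was 0.962, so equal numbers of reads in both libraries would correspond to −0.39 on the scale of the median gene. *Uhg2*, a longer RNA for which no step was sought, was at −0.34. If 1 step is 1 read, snoRNA:Or-aca5 had 334 reads in the input and 2824 in the immunoprecipitate, a ratio of 8.46 with a 95% interval of 7.55 to 9.50. snoRNA:Or-CD2 had 163 and 81, a ratio of 0.50 with an interval of 0.38 to 0.65. The intervals of these RNAs of 1 host did not overlap, and snoRNA:Psi28S-2949 had 1 and 14 reads and an interval of 2.13 to 592. The intervals are exact Clopper-Pearson intervals and cover counting error only, not the spread between preparations.

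The other snoRNAs of the *Uhg* genes had values between 47.8 and 179 FPKM, mostly in 1 library only. In *Uhg1*, snoRNA:Me28S-A3407a and snoRNA:U29:54Ed, both 87 bases long, were at 132 and 66.2 FPKM in the immunoprecipitate, the first 2 times the second, and snoRNA:U27:54Ea was at 179 FPKM. The single values in *Uhg2* and *Uhg7* were 47.8 FPKM for snoRNA:Me18S-A1576 and 69.4 FPKM for snoRNA:Me28S-A2634c, again in the immunoprecipitate alone. In *Uhg5*, 10 of 11 were at 0 in both libraries, and snoRNA:Me28S-G2703a was at 56.7 and 166 FPKM. In *Uhg8*, snoRNA:Me18S-U1356a was at 100.4 FPKM in the input but at 0 in the immunoprecipitate. The number of reads behind these values could not be resolved, and no ratio is read from them.

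**Figure D4:**
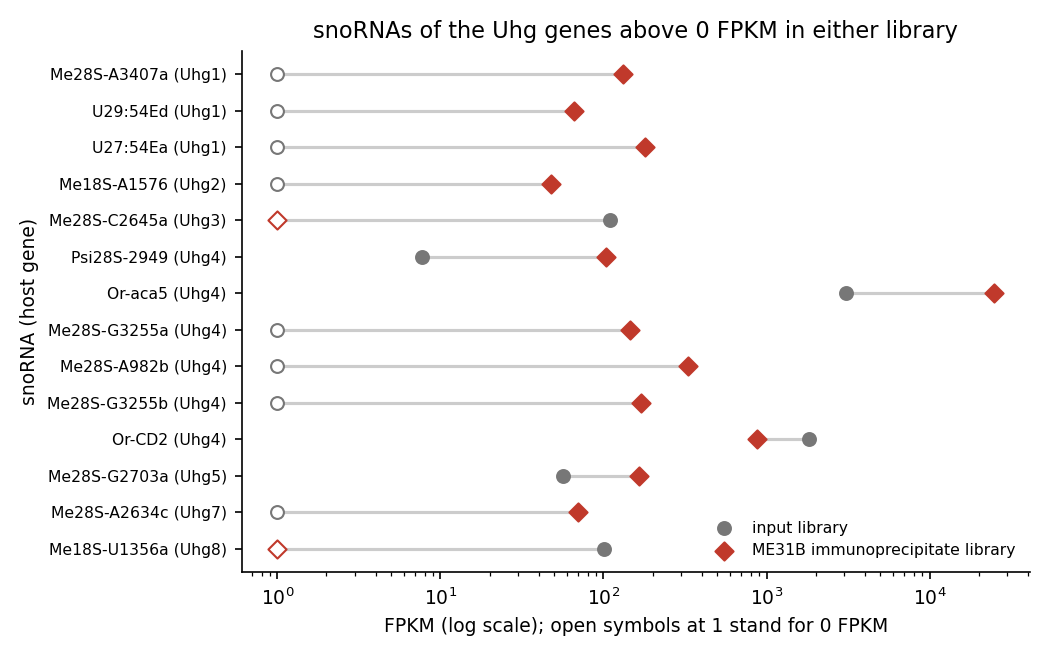
FPKM on a log axis of the 14 snoRNAs of the Uhg genes that were above 0 in either library, with the host in parentheses (circles, input; diamonds, ME31B immunoprecipitate; open symbols at 1 stand for 0 FPKM). Or-aca5 and Or-CD2 of Uhg4 are the highest and lie in opposite directions.

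Other host genes of snoRNAs were mostly on the other side of the median gene. By the RefSeq annotation, 96 protein-coding genes hold a whole snoRNA gene in their span, and 88 of them passed 0.5 FPKM in both libraries. Their median was −0.85. Above the 2-fold rule were 3 genes (3.41%), beside 9.48% of all 6886 genes, and below it 37 (42.0%), beside 15.2%. The highest was *tra2*, a splicing regulator of sex determination, at 1.48, from 96.2 to 339 FPKM, and the lowest was *Prp8*, a core protein of the spliceosome, at −2.48, from 22.2 to 5.03 FPKM. All 29 hosts that encode ribosomal proteins passed, with a median of −1.28, and the lowest was *RpL7A* at −2.19. Without them the median of the other 59 was −0.62. In the input the ribosomal protein hosts were at 683 to 8475 FPKM and the *Uhg* genes at 1.55 to 43.6 FPKM. The host lists were not matched to the *Uhg* genes for level. *Uhg3* at 3.10 and *Uhg7* at 1.52 lay above all 88 protein-coding hosts, *Uhg7* only just above *tra2*.

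Protein-coding hosts of several snoRNAs were also mostly below the median gene. The 19 that hold at least 3 snoRNA genes had a median of −0.91 and a highest value of 0.58, for *Arpc2*, a subunit of the actin-nucleating Arp2/3 complex with 17 snoRNA genes. Of the *Uhg* genes, which all hold at least 3, 5 were above 0.58. Only 2 other noncoding hosts passed the minimum, and both were low. CR42491 was at 21.8 FPKM in the input against 1.35 FPKM in the immunoprecipitate, or −4.35, and the antisense RNA CR45874 at 3.16 and 0.53 FPKM, or −2.92. Each of these holds 1 snoRNA gene. The strand of the genes is not in the table used, so a host here is any gene whose span contains the snoRNA gene. By this definition *RpL23A* and *CG7974*, which share snoRNAs with *Uhg7*, and *Ctu1*, which shares one with *Uhg4*, count among the protein-coding hosts.

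**Figure D5:**
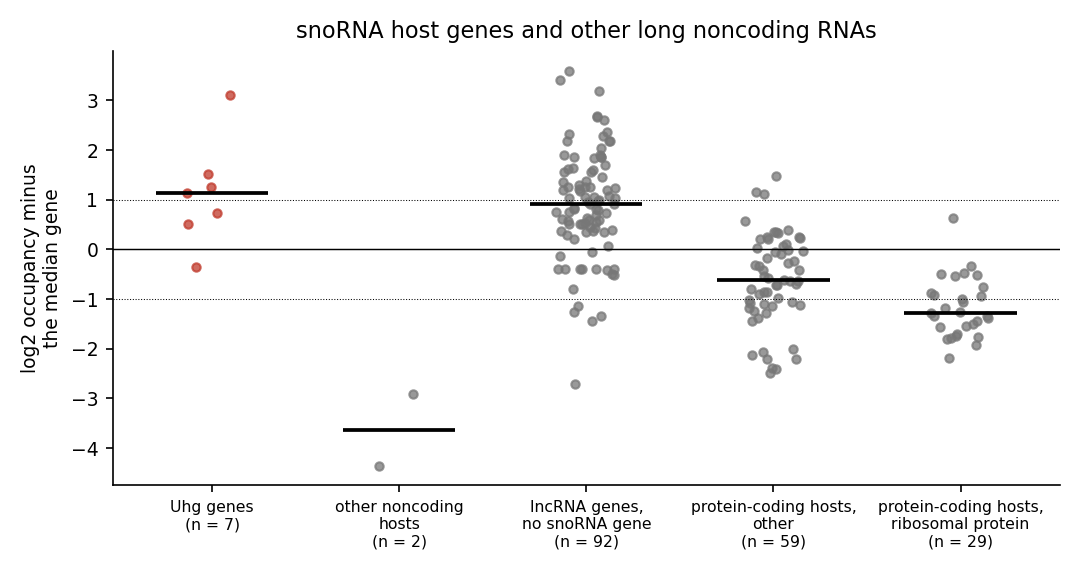
Log2 occupancy minus the median gene for the Uhg genes, other noncoding hosts, long noncoding RNA genes without a snoRNA gene, and protein-coding hosts, split into those that encode other proteins and those that encode ribosomal proteins (each point a gene, horizontal bars medians, dotted lines 2-fold from the median gene). The medians are 1.14 for the Uhg genes, −3.63 for the 2 other noncoding hosts and 0.92 for the other long noncoding RNAs. They are −0.62 for the protein-coding hosts of other proteins and −1.28 for those of ribosomal proteins.

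The median of the *Uhg* genes was close to that of other long noncoding RNAs. The 92 that hold no snoRNA gene and passed the minimum had a median of 0.92. Of them 42 (45.7%) were at least 2-fold above the median gene, beside 9.48% of all 6886 genes. Their values ran, among those with at least 1 FPKM in the input, from CR43250 at −2.71 to CR45566 at 3.20. Ranked among all 100 long noncoding RNAs measured, *Uhg3* was at place 4, *Uhg7* at 27, *Uhg8* at 34, *Uhg1* at 41, *Uhg4* at 59, *Uhg5* at 69 and *Uhg2* at 84. Protein-coding genes with an input level and a span within the ranges of the *Uhg* genes, 1868 in number, had a median of 0.07, and 7.23% of them were at least 2-fold above the median gene. The 14 other long noncoding RNAs in the same ranges had a median of 0.82, with 6 at least 2-fold above. Unlike the 92, they include a snoRNA host, CR42491, at −4.35.

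The genes most like each *Uhg* gene were found by the distance between their log2 FPKM in the 2 libraries. For *Uhg3* the nearest was *pncr013:4*, at 37.5 and 403 FPKM and a distance of 0.33, and the next, CG34015, was at a distance of 0.85. The other *Uhg* genes had closer neighbours. The nearest of *Uhg7* was *Kaz1-ORFB* at 0.15, followed by the long noncoding RNA CR44392 at 0.22. For *Uhg1* they were CG12520 at 0.066 and the antisense RNA CR44724 at 0.070. *Uhg8* lay beside *CkIIalpha-i1*, *Uhg4* beside *Ak6* and CG2662, and *Uhg2* beside *HP5* and *Start1*, at distances from 0.011 for *CkIIalpha-i1* to 0.030 for CG2662. The neighbours of *Uhg5* were CG18858 at 0.056 and CG17029 at 0.074. With only 2 libraries such likeness is one of level and ratio alone.

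The name Uhg6 is held in the RefSeq table as a synonym of *Nop60B*, a protein-coding gene that encodes the pseudouridine synthase of H/ACA snoRNPs and holds 7 snoRNA genes. It was at 606 FPKM in the input against 962 FPKM in the immunoprecipitate, an occupancy of 0.33. Of the 7 noncoding *Uhg* genes only *Uhg2*, at −0.34, was lower. Of the 8 genes for core snoRNP proteins, 1 was above the 2-fold rule and 1 below it. These shares of 12.5% each stood beside 9.48% above and 15.2% below over all 6886 genes. The median of the 8 genes was 0.28. They ran from *Fib*, the methyltransferase of C/D snoRNPs, at −1.11 to *hoip*, whose protein binds the C/D RNA itself, at 1.33.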

How the data were processed

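RNA from an ME31B immunoprecipitate and from the input lysate of stage 14 oocytes was sequenced by the authors, 1 library each, after rRNA depletion with a stranded kit. The submitters' processing notes name bcl2fastq 2.17, the aligner STAR 2.5.2a, the dm6 genome, Cufflinks 2.2.1 for FPKM and R 3.1.2. The authors deposited FPKM values per gene. The annotation release, strand setting and handling of multi-mapped reads were not given in the sources used here. Some values are residues of the estimation, and those below 0.001 FPKM were taken as 0 for snoRNAs.

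Occupancy was log2 of immunoprecipitate over input FPKM without a pseudocount, for genes above 0.5 FPKM in both libraries, minus their median. Symbols were matched to the RefSeq Release 6 gene table for 6834 of the 6886 genes kept, using synonyms and locus tags where they belong to 1 gene. A host was a gene whose span contains a snoRNA gene on either strand, since that table gives none. Members, lists and alternatives were chosen with earlier results of these data known, and lists are described by counts and medians. Named genes are the members, their snoRNAs above 0, their 2 nearest genes, all other noncoding hosts and the extremes of each list with at least 1 FPKM in the input, and some genes that this rule takes are not reported here. *Arpc2*, *RpL23A*, the other genes overlapping members, and *Yp3* were named after their values were seen. Promoters and sequences were not examined. Computation used Python 3.11.15 with pandas 2.3.3, numpy 2.4.6 and scipy 1.17.1, and was tested on simulated data. The simulated input levels lay above those of *Uhg1*, *Uhg5* and *Uhg7*, and the planted changes were larger than 2-fold. The simulation therefore does not measure the error of the values of these genes.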

Additional observations from a re-analysis of the deposited data

How the results depend on the processing

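No paired analysis was possible because there is 1 input and 1 immunoprecipitate library, and no replicate could be left out. The value of *Uhg3* stayed above 2-fold under all 8 alternatives of filter, pseudocount and centring, from 2.18 to 3.44. Of 53 alternative values of single *Uhg* genes, 44 stayed on their side of the 2-fold rule and kept their sign. The median over the members, 1.14 as reported, was 0.94 with a minimum of 5 FPKM, which leaves 4 members, and 0.93 with a pseudocount of 1 FPKM. It was 0.21 when centred on long noncoding RNA genes, where *Uhg4* and *Uhg5* turned to −0.20 and −0.41. By alternatives chosen after seeing the data, it was 0.93 without *Uhg7* and 0.51 over the 3 members that overlap no protein-coding gene. The number at least 2-fold above, 4 as reported, was 2 with a minimum of 5 FPKM, 1 when centred on long noncoding RNA genes, 1 by a 3-fold rule and 1 without the overlapping members. The number at least 2-fold below was 1, *Uhg2*, when centred on long noncoding RNA genes. Of snoRNAs inside *Uhg* genes, 3 of 4 kept passed the upper 2-fold rule, and 11 of 46 with no minimum and a pseudocount of 0.5 FPKM, 8 of which were at 0 in the input. The 3 include snoRNA:Me28S-G2703a, whose reads could not be resolved, and snoRNA:Psi28S-2949, with 1 read in the input if 1 step is 1 read. Of the other snoRNAs kept, 11 of 85 with 100 bases or more and 1 of 3 shorter ones passed this rule. For other noncoding hosts, a minimum of 5 FPKM and a limit to hosts of at least 2 snoRNA genes gave no value, as no gene of the list was left. The number of reads behind the scarcer members is unknown and limits all their values.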

Other observations

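Genes of nonsense-mediated decay, the pathway that clears spliced UHG RNA in mammals, were all measured in these oocytes. Of 10 such genes, 4 were below the 2-fold rule and 1 above it, beside 15.2% and 9.48% of all 6886 genes. Their median was −0.77. *nonC*, which encodes the kinase SMG1, had the lowest value, −2.65, with 5.73 FPKM before and 1.15 FPKM after immunoprecipitation. The helicase gene *Upf1* was at −1.52, *Upf2* at −1.33 and *Smg6* at −1.23, and these were named after their values were seen. The remaining decay factors, *Upf3* and *Smg5*, were at −0.68 and −0.74. Of the genes of the exon junction complex core, *eIF4AIII* was at 1.09, *mago* at 0.97, *tsu* at 0.64 and *btz* at −0.80.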
